A study of Mus musculus with 12 samples.

Results

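The apolipoprotein genes Apoa1, Apoa2, Apoa4, Apoa5, Apob, Apoc1, Apoc3, Apoe, Apoh and Apom were examined for R-loop peaks in HEPA1-6 cells and in mouse liver. They were chosen by name, and all 10 were found among the 21887 protein-coding genes of the RefSeq table (assembly GRCm38.p6). A peak was set on a gene when it overlapped the gene body extended by 1 kb on both sides. The labels list 12 libraries in 6 groups of 2: S9.6 immunoprecipitates, the same after RNase H1, an enzyme that digests the RNA of hybrids, and inputs. Each was made from HEPA1-6, a mouse hepatoma line, and from liver of C57/Bl6 mice. Each library is labelled wild type (WT), with no treatment and with hepatocyte as its cell type. The age of the mice, and whether animals were pooled, are not given in the sources used here. The data were 1 peak list for each source, of 28717 peaks (HEPA1-6) and 14908 peaks (liver), each named for a merged immunoprecipitate set against an input. Because the libraries of a source were merged into 1 list, replicates cannot be compared, and no difference between the lists was tested. The depth behind the lists is unknown, the RNase H1 libraries were not analysed here, and a gene without a listed peak may hold signal below the authors' threshold.

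Apolipoproteins are the protein part of lipoprotein particles, which carry cholesterol and triglycerides through the blood, and hepatocytes secrete most of them. Some build the particle, some are ligands of the receptors that clear it, and some activate or inhibit the enzymes that remodel it. An R-loop forms when RNA pairs with a DNA strand and displaces the other strand. R-loops are known from transcribed genes, above all where the RNA-like strand is rich in G behind the start of transcription, and S9.6 is an antibody that binds the RNA-DNA hybrid.

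Most apolipoprotein genes held no peak. In HEPA1-6, 4 of the 10 held a peak (Apoa2, Apob, Apoe and Apom), beside 42.0% of all protein-coding genes. In the liver list, 2 of the 10 held a peak (Apoa2 and Apoe), beside 29.7% of protein-coding genes. Both of these genes also held a HEPA1-6 peak, which 27.8% of protein-coding genes did in both lists. Apob and Apom held a peak in HEPA1-6 only, a class of 14.2% of protein-coding genes, and 0 of the 10 held one in the liver list only, a class of 1.89%. Apoa1, Apoa4, Apoa5, Apoc1, Apoc3 and Apoh were without a peak in both lists, as were 56.1% of protein-coding genes. The member counts thus lay near the shares over all genes. Gene length matters for such a count, since a longer window meets more peaks. Of the 8 members no longer than Apoe (5067 bp), 3 held a HEPA1-6 peak and 2 a liver peak, where protein-coding genes up to that length held one in 22.6% and 16.6% of cases.

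**Figure D1:**
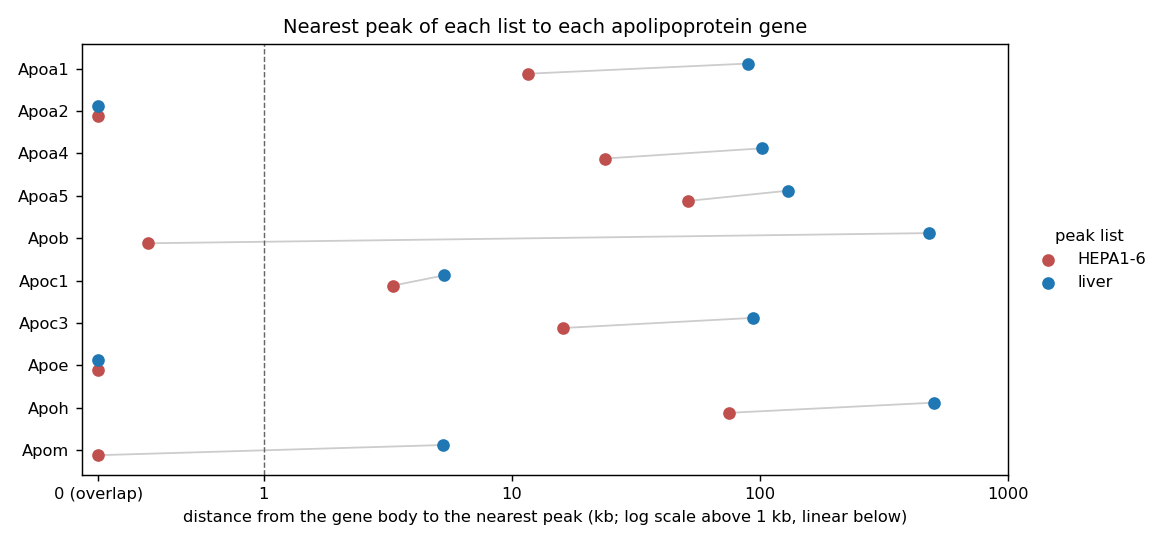
Distance from each gene body to the nearest peak of the HEPA1-6 list (red) and the liver list (blue), in kb on a scale that is linear below 1 kb and logarithmic above; the dashed line marks the 1 kb window. Apoa2 and Apoe overlapped a peak in both lists, while Apoh lay 75.2 kb from a HEPA1-6 peak and 505 kb from a liver peak.

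The promoters are shown because the peaks divide the members there. RefSeq promoter windows of GRCm38.p6 (250 bases before to 50 bases after an annotated start) were given for 8 of the 10 members, as 12 windows; Apoc1 and Apoc3 had no entry. A HEPA1-6 peak lay on 4 of these windows, beside 20.1% of 21263 windows of protein-coding genes, and a liver peak on the same 4, beside 13.2%. Counted by gene, 2 of the 8 members had such a window in each list, beside 20.4% (HEPA1-6) and 13.5% (liver) of 17492 genes. The 4 windows were that at the upstream start of Apoa2 and all 3 of Apoe. The Apoa2 window also lies within the body of Tomm40l (chr1:171217802-171222514), which overlaps Apoa2. The window at the downstream start of Apoa2 lay under no peak. The sequences below run 5′ to 3′ on the strand of the gene, with runs of GGGG and of CCCC (GGGG on the other strand) in capitals. The windows of Apoa2 and Apoe printed here lay under a peak in both lists. The window of Apob lay just downstream of a HEPA1-6 peak, and those of Apoa1 and Apoa5 lay under none.
Apoa2, chr1:171221314-171221613 (+): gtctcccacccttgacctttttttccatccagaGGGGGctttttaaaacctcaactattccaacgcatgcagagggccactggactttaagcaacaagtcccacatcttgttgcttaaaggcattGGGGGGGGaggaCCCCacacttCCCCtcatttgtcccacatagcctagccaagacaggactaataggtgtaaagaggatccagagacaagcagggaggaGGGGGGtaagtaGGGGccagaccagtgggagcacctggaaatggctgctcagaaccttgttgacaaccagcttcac
Apoe, chr7:19698349-19698648 (-): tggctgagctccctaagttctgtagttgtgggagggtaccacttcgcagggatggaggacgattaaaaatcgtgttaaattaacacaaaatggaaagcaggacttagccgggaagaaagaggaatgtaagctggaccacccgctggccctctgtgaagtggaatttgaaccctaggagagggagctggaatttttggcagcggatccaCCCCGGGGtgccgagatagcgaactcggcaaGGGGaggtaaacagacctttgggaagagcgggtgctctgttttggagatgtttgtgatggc
Apob, chr12:7977427-7977726 (+): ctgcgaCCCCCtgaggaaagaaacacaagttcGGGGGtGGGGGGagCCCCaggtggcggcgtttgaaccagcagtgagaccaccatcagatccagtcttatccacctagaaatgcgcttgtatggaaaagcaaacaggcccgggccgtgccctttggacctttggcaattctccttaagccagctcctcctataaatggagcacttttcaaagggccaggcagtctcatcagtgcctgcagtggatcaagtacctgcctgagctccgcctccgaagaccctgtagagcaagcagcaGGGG
Apoa1, chr9:46228380-46228679 (+): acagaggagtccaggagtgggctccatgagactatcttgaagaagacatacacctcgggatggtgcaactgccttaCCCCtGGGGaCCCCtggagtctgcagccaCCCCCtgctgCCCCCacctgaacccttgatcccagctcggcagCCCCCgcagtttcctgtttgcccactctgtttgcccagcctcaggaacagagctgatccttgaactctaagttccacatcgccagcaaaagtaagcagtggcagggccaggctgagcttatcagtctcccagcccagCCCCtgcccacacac
Apoa5, chr9:46268358-46268657 (+): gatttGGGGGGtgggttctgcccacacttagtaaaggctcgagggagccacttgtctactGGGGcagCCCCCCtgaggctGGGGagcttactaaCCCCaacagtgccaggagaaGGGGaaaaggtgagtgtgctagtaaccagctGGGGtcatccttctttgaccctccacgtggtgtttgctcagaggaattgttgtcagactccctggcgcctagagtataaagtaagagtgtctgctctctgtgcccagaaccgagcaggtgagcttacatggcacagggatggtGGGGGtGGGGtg

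The 4 windows under a peak come from only 2 genes, and their base composition is given as a description. GC skew, (G-C)/(G+C) on the strand of the gene, is the excess of G over C. Over the first 50 transcribed bases it was highest at Apoa5, at 0.55 and 0.62 for its 2 windows, which share 275 bases and lay under no peak. At Apoe it was 0.46, 0.44 and 0.00, at the upstream start of Apoa2 -0.04 and at Apoa1 -0.33, with a median of 0.08 over all windows. Its median was 0.22 over the 4 windows under a peak and 0.03 over the other 8, and the ranges overlapped. The G+C content of the 4 windows under a peak was 51.0 to 57.7%, and that of the other 8 member windows 44.0 to 59.3%. All windows of protein-coding genes under a HEPA1-6 peak had a median G+C of 63.2%, and those without one 54.3%. CpG dinucleotides, which mark the promoters of many widely expressed genes, were sparse at the members. Their observed over expected ratio had a median of 0.26 over the 12 windows and of 0.57 over all windows, and it passed the latter only at 2 windows of Apoe (0.59 and 0.62). The median was 0.50 over the 4 windows under a peak, where Apoa2 had 0.05, and 0.18 over the other 8. Over all windows it was 0.83 under a HEPA1-6 peak and 0.44 without one. GGGG on either strand occurred in all 12 windows and in 88.2% of all windows. TATAAA, the core of the TATA box, occurred on either strand in 5 member windows and in 12.6% of all windows. Each of these 5 windows held it on the strand of the gene. These matches came from 4 sites, because both Apoa5 windows hold the same site, 31 bp before one start and 56 bp before the other. On the same strand, the match at Apob began 60 bp, at the middle start of Apoe 96 bp and at the downstream start of Apoa2 212 bp before the start. The middle Apoe window also held TATAAA on the other strand. A match is a run of letters and no proof of a site in use, and windows of 1 gene can share bases.

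**Figure D2:**
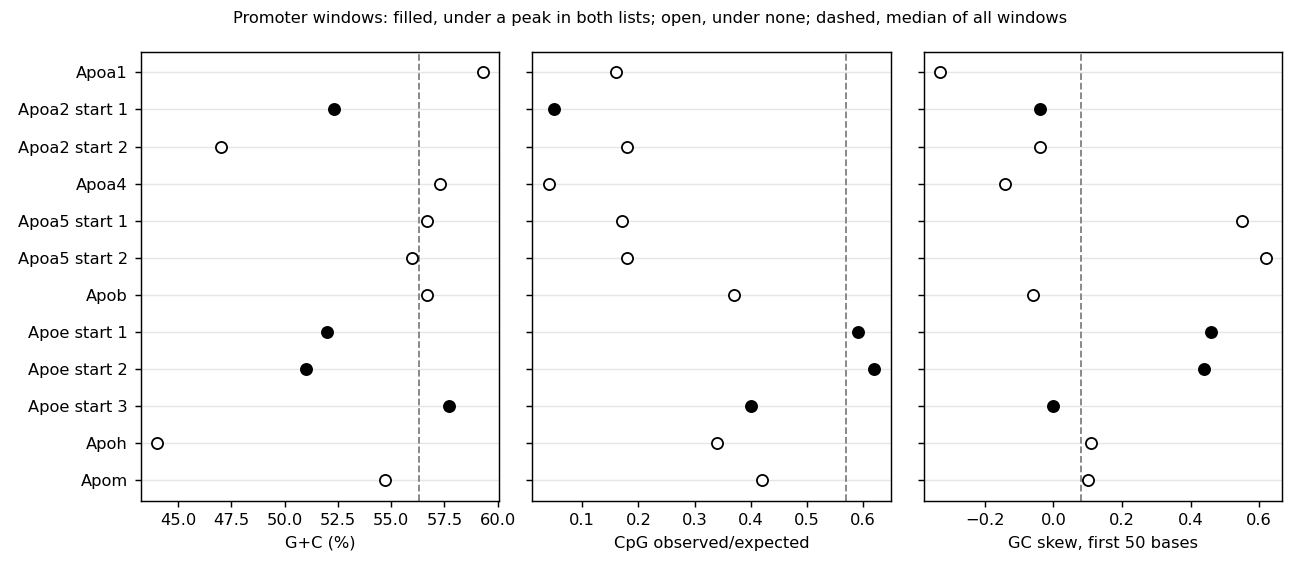
G+C content, CpG observed over expected ratio and GC skew of the first 50 transcribed bases for the 12 promoter windows of 8 members, with starts numbered by chromosome position; filled points lay under a peak in both lists, open points under none, and dashed lines are medians over 21263 windows. The filled points of Apoa2 and Apoe fall among the open ones in G+C content and skew, and the highest skew, 0.62, belongs to an open point of Apoa5.

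Apoe encodes apolipoprotein E, the ligand by which remnant particles bind to their receptors on cells. In HEPA1-6 it lay in a single peak of 20641 bp (chr7:19695969-19716609, minus strand), which covered 100% of its body. It ranked 36 of 28717 by width. Its score was 63, rank 1650, and 5.74% of the list scored higher. The peak also spanned Tomm40, which encodes the pore of the mitochondrial import machinery, and overlapped the lncRNA gene Gm38955, so 24.5% of its length lay in Apoe. Nectin2, a cell adhesion gene, lay within 1 kb of it. The strand given to the peak was that of Apoe, Tomm40 and Nectin2, whereas Gm38955 is on the plus strand.

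In the liver list, 4 separate peaks lay within that HEPA1-6 interval and covered 60.8% of it. The one at chr7:19697965-19700479 (2515 bp, score 23, rank 6436 of 14908) lay wholly in Apoe, covered 49.6% of its body and held all 3 annotated starts of the promoter table. It ran from -1291 to 1223 bp around the most upstream of these starts. The next, chr7:19701809-19705431 (3623 bp, score 30, rank 3929), lay in Tomm40 and counted for Apoe because it was 499 bp from the boundary of Apoe in the gene table. That boundary is 2122 bp upstream of the most upstream start of the promoter table. Relative to that start, this peak ran from -6243 to -2621 bp. Its place at Apoe thus depends on the transcript taken. The other 2 (scores 27 and 44) lay in and beside Tomm40. The last of them, at chr7:19712708-19716609, was given the plus strand, that of Gm38955, and ended on the same base as the HEPA1-6 peak. Of the liver list, 43.2% and 26.3% scored higher than the 2 peaks counted for Apoe.

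Apoc1 encodes a small apolipoprotein that inhibits lipoprotein uptake and lipase activity. It lies beside Apoe and held no peak in either list: the nearest was the wide HEPA1-6 peak, 3310 bp away, and the nearest liver peak was 5306 bp away. Further along, Apoc4 held a HEPA1-6 peak of 229 bp (score 23), which also lay in the overlapping gene model Gm44805, and no liver peak. Apoc2, the activator of lipoprotein lipase, held none. In this gene cluster, peaks thus lay on Apoe, on Tomm40 and, in HEPA1-6, on Apoc4, and none was listed over Apoc1 and Apoc2.

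Apoa2 encodes apolipoprotein A-II, a structural protein of HDL. Its HEPA1-6 peak (chr1:171216056-171223026, 6971 bp) scored 37, rank 4870 of 28717, and 4.56% of the list was wider. Its liver peak (chr1:171217130-171224654, 7525 bp) scored 38, rank 2337 of 14908, and 1.43% of the list was wider. They shared 5897 bp, which was 84.6% of the HEPA1-6 peak and 78.4% of the liver peak. The strands given were opposite: plus, that of Apoa2, in HEPA1-6 and minus in the liver list. Around the upstream start of Apoa2, the HEPA1-6 peak ran from -5508 to 1462 bp and the liver peak from -4434 to 3090 bp. Both thus held that start and neither the downstream one, from which the liver peak ended at -400 bp. Each peak also overlapped the nuclear receptor gene Nr1i3 and the gene Tomm40l, and Apoa2 held 21.0% of the HEPA1-6 peak and 41.1% of the liver peak. Nr1i3 is on the plus strand too, and the strand of Tomm40l was not given. Of the body of Apoa2, 30.4% and 64.2% were covered. The bodies of Apoa2 and Tomm40l overlap, up to base 171222514, so peak bases there lie in both genes. From these lists the signal of such a peak cannot be assigned to 1 of the 3 genes.

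Apob encodes the large scaffold protein of VLDL and LDL and is the longest member (39211 bp). Its body held 0 bp of peak in both lists. It was counted in HEPA1-6 for a peak of 563 bp (chr12:7976767-7977329, plus strand, that of the gene), which lay 300 bp outside the gene and from -910 to -348 bp relative to the annotated start. This peak scored 15, and 75.3% of the list scored higher. The peak touched no other gene within 1 kb, unlike every other member peak. Apart from this peak, the nearest HEPA1-6 peaks were 3072 kb from the gene on the same side and 201 kb on the other. In the liver list the nearest peak was 481 kb away, in a peak-free stretch of 2261 kb, and 1.05% of the gaps between neighbouring liver peaks were longer. This percentage counts gaps and not genes or bases, and a long gap spans more of the genome than a short one.

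Apom encodes a lipocalin of HDL that carries sphingosine-1-phosphate. Its HEPA1-6 peak (chr17:35129260-35130142, 883 bp) lay wholly in the gene, 1659 to 2541 bp downstream of the annotated start, and left the promoter window uncovered. It had the strand of the gene and the next highest score of a member peak after Apoe in that list, 55, with 7.63% of the list higher, although 59.3% of the list was wider. The adjoining gene D17H6S53E lay within 1 kb. In HEPA1-6, further peaks followed at 1.14 kb (score 31, over D17H6S53E) and at 2.06 kb (score 31, over Bag6), just outside the 1 kb window. In the liver list the nearest peak was 5.26 kb away, also over Bag6, which encodes a chaperone. Apom thus lies in a stretch with many peaks, 14 in HEPA1-6 and 11 in the liver list within 100 kb.

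**Figure D3:**
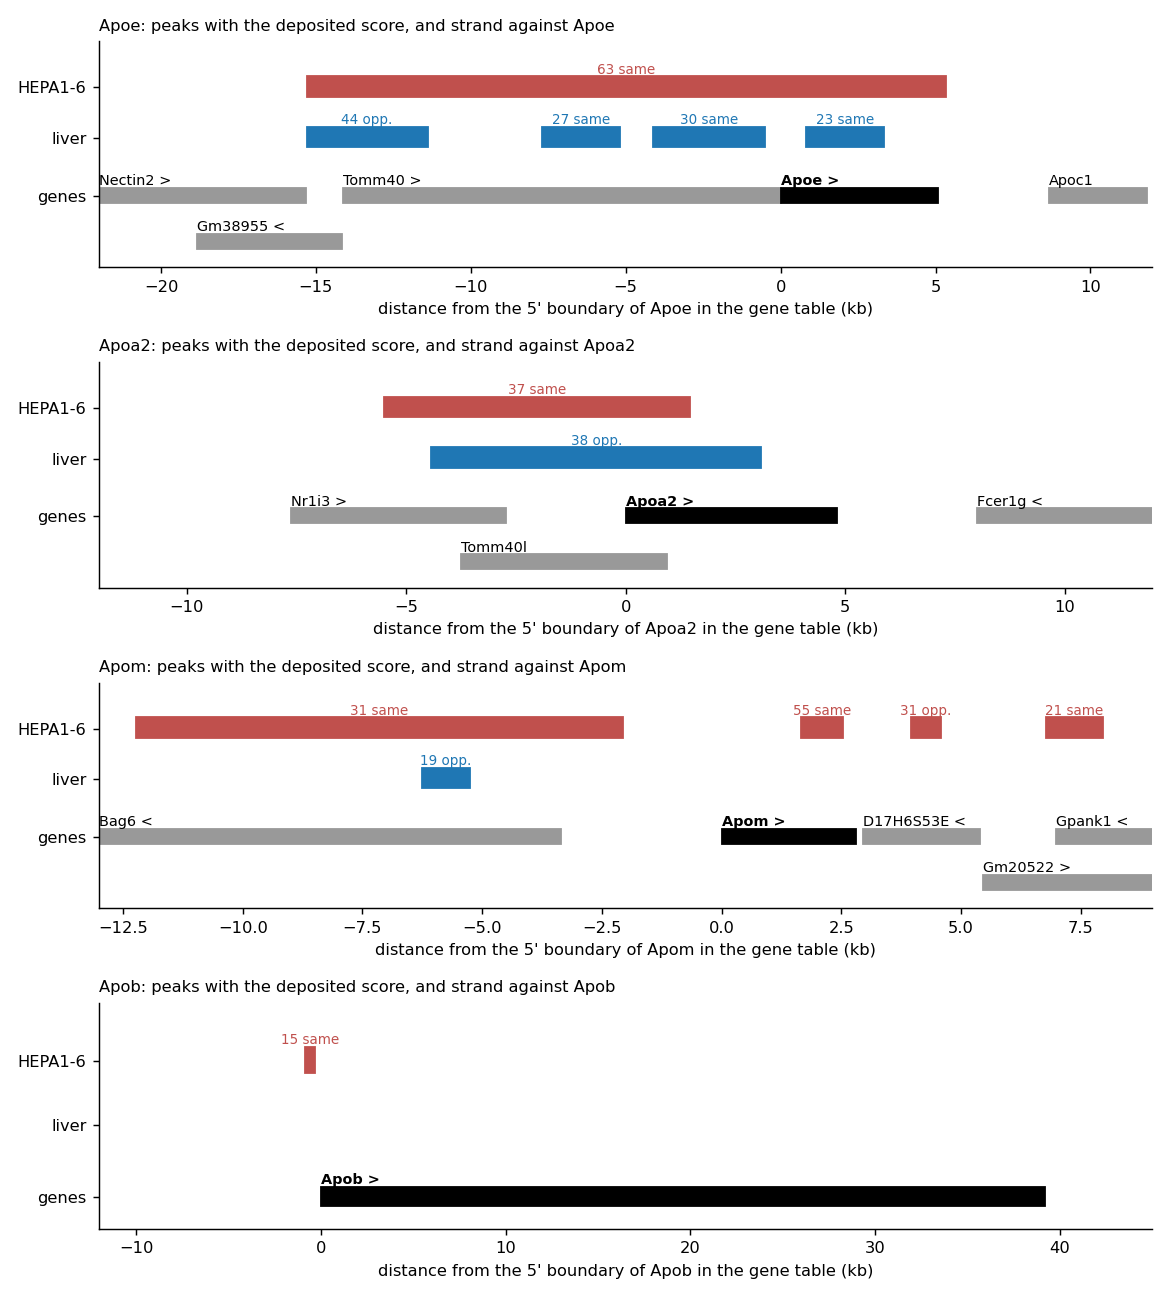
Peaks of both lists around the 4 members that held one, drawn by distance in kb from the 5′ boundary of the member, with its direction of transcription to the right. Numbers are deposited scores, "same" and "opp." give the strand of a peak against that of the member, and arrowheads after gene names show direction where the promoter table gives it. The Apoe panel shows 1 HEPA1-6 peak over the positions of 4 liver peaks, and the Apob panel a single peak upstream of the gene.

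**Figure D4:**
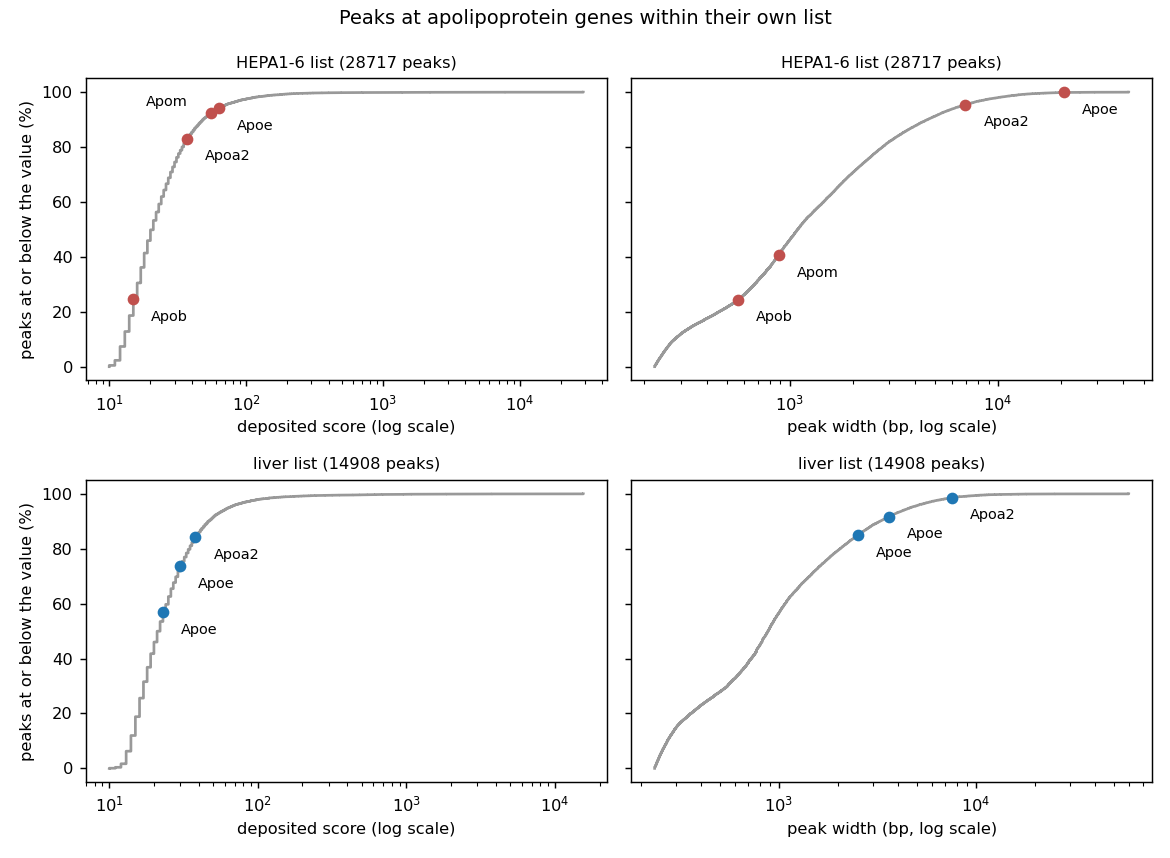
Share of each list at or below a given score (left) or width (right), both on log axes, with the peaks at members as points on the curve of their own list. In HEPA1-6 the peaks at Apoe, Apom and Apoa2 stand high by score and the peak at Apob, with a score of 15, stands low.

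Apoa1, Apoc3, Apoa4 and Apoa5 lie together in 43.3 kb of chromosome 9 (46228630 to 46271921). Apoa1 encodes the main protein of HDL, and Apoc3 slows the hydrolysis of triglycerides in the particle. Apoa4 belongs to particles made after a fat-containing meal, and Apoa5 promotes hydrolysis. None of these 4 genes held a peak in either list, and neither did the next genes, Zpr1 and Bud13. The HEPA1-6 peaks nearest to the cluster were at Sik3, a kinase gene, 11.6 kb from Apoa1 (338 bp, score 19), and, on the other side, 1258 kb away at Cadm1. This left 1313 kb without a HEPA1-6 peak, longer than all but 1.41% of the gaps in that list, whose median was 5.53 kb. In the liver list the nearest peaks were also at Sik3, 89.7 kb away (score 30), and 1946 kb away at Nxpe4. The peak-free stretch was 2079 kb, with 1.30% of gaps longer and a median gap of 16.3 kb. Both percentages count gaps, and the share of genes or of the genome lying in gaps this long was not computed. The strand of the Sik3 peaks beside the cluster was that of Sik3, plus. The cluster thus lay at the edge of a long stretch without peaks in both lists.

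Apoh encodes beta-2-glycoprotein I, a plasma protein that binds phospholipids. It held no peak, and the nearest HEPA1-6 peaks were 75.2 kb away at Prkca and 80.6 kb away at Cep112. The nearest liver peak was 505 kb away at Axin2. Its promoter window had the lowest G+C content of the members, 44.0%.

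The surroundings of the members differed widely. Within 100 kb of the gene body, the HEPA1-6 list held from 1 peak (Apob) to 17 peaks (Apoc1), with a median of 3 over the 10 members and of 4 over all protein-coding genes. Each of the 10 had a HEPA1-6 peak in that range, while 26.9% of protein-coding genes had none. The liver list held 0 to 15 peaks, most at Apoa2, with a median of 2 over the members and of 1 over all protein-coding genes. Apoa4, Apoa5, Apob and Apoh had no liver peak in that range, as had 34.2% of protein-coding genes. Members within 1 cluster share this range.

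Other apolipoprotein genes and genes named for them were counted the same way. Of 20, 5 held a HEPA1-6 peak and 1 a liver peak, beside the same 42.0% and 29.7% of all protein-coding genes. Apobr, which encodes a receptor for apolipoprotein B48 particles, held 2 peaks in each list, with top scores of 83 and 43. In HEPA1-6 only, Clu (clusterin, or apolipoprotein J) held 6 peaks with a top score of 27, Apoc4 scored 23, Apof 16 and Apobec1, the editing enzyme of Apob mRNA, 14. None of the 10 listed Apol genes on chromosome 15 held a peak.

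Genes that act on lipoproteins were grouped by role, and of 31, 19 held a HEPA1-6 peak, 14 a liver peak and 13 both, beside 42.0%, 29.7% and 27.8% of all protein-coding genes. Those shares hold for each role below. Many of these genes are longer than the apolipoprotein genes: those for receptors and uptake span 15700 bp (Lsr) to 82992 bp (Lrp1), whereas 8 of the 10 members span at most 5067 bp. Of 8 genes for receptors and uptake, 7 held a HEPA1-6 peak and 5 a liver peak. Lsr, a lipoprotein receptor gene, had top scores of 98 and 66 in the HEPA1-6 and liver lists. Lrp1, a remnant receptor gene, had 41 and 43. Of 8 genes for assembly and secretion, 6 and 4 held a peak. Mttp, the transfer protein that loads Apob with lipid, had only a HEPA1-6 peak at the minimum score of that list, 10. That peak lay in the flank, outside the gene body. The highest scores of this role were at Mia2 (34), Surf4 (33) and Pdia3 (30) in HEPA1-6, and at Pdia3 (36), Surf4 (32) and P4hb (30) in the liver list. Of 8 genes for enzymes and transfer, 4 held a peak in each list. HEPA1-6 was led by Lmf1 (48), Pltp (46) and Lpl (32), and the liver list by Pltp (25), Lmf1 (20) and Lpl (16). Less than 50% of the HEPA1-6 peak at Pltp lay in the window of that gene. The liver peak at Lpl lay in the flank, outside the gene body. Lipc, the hepatic lipase gene, held a peak in the liver list only (score 13). Of 3 inhibitor genes, Angptl4 held a HEPA1-6 peak (17). Of 4 sterol export genes, Abca1, the transporter that loads Apoa1 with cholesterol, held 10 HEPA1-6 and 2 liver peaks with top scores of 52 and 34. The counts by role have no test.

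**Figure D5:**
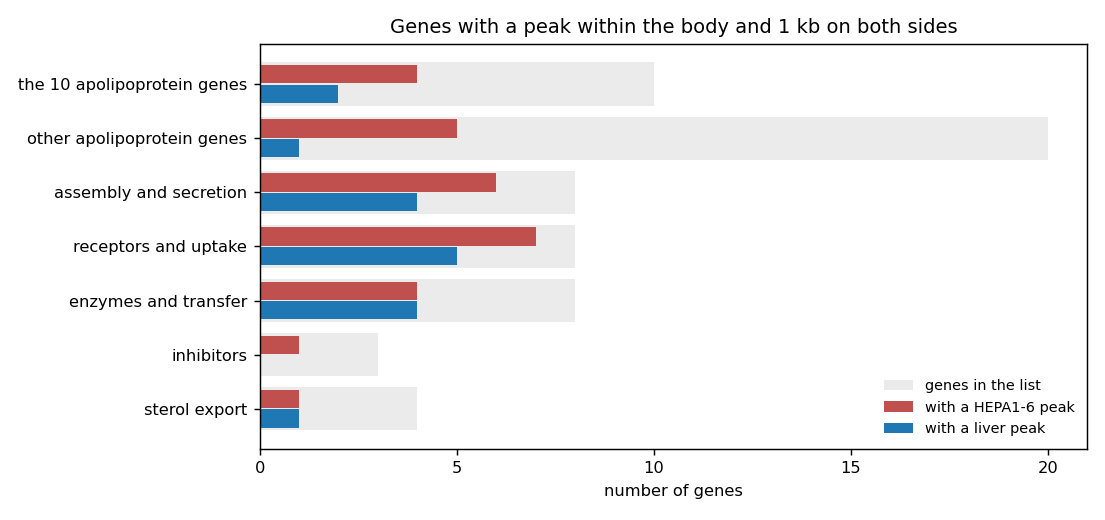
Number of genes with a HEPA1-6 peak (red) and a liver peak (blue) among the genes of each list (grey), for the 10 apolipoprotein genes, 20 other genes of that name and 31 lipoprotein genes by role. Receptor and uptake genes held peaks at 7 and 5 of 8 and the 10 apolipoprotein genes at 4 and 2, beside 42.0% and 29.7% of all protein-coding genes; the lists differ in gene length.

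The labels name hepatocytes, so marker genes were checked, although a peak is no measure of RNA level. Of 15 hepatocyte markers, 3 held a HEPA1-6 peak (Alb, Trf and Hnf4a) and 4 a liver peak (the same and Fah), and 11 held none in either list. Over all protein-coding genes these shares were 42.0%, 29.7% and 56.1%. The 4 Kupffer cell and 4 endothelial markers held none, and 1 of 3 stellate (Dcn) and 1 of 3 cholangiocyte markers (Sox9) held a peak in both lists. How far the cell makeup or the transcription of these genes bears on the peaks was not tested.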

How the data were processed

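The deposited data were 1 peak list per source, with chromosome, start, end, name, score, strand and no header. Per the submitters' processing notes, the build was mm10 (GRCm38) and the tools were CASAVA 1.8.2, cutadapt, Bowtie2, bedtools, SAMtools and MACS2, with no role or order given. Column 5 holds a deposited score, in whole numbers from 10, whose scale is unstated, so scores were ranked within a list and not compared between lists. How a peak was given its strand is not given in the sources used here. Neither depth nor counts per library were available from the lists.

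Starts were turned to 1-based positions. Peaks were set on RefSeq genes (chromosomes 1 to 19, X and Y) by an overlap of at least 1 bp with the body and 1 kb on both sides, in Python 3.11.15 with pandas 2.3.3, and the functions were tested on simulated data. The gene table holds no exons, so exon, intron and UTR were not assigned. Gene strands came from the promoter table. Named were all members, genes sharing a member peak, neighbours within 20 kb of the Apoe and Apoa1 clusters, other apolipoprotein genes with a peak, and up to 3 top-scoring genes per role and list; Mttp, Lipc, Bag6, Pcp4l1, the markers with a peak and the genes flanking long gaps were named after their values were seen. The members and lists were chosen with earlier results of these data known. Alternatives covered the window, the overlap, the score threshold, list length and gene length. 2 genes of the planned role lists are not reported here. The planned protein comparison was not run, as no protein table was used here. Published R-loop mapping steps, per the labels' protocols, preceded sonication and paired-end sequencing.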

Additional observations from a re-analysis of the deposited data

How the results depend on the processing

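Of 45 alternatives for 10 results, 34 stayed within 1.5 times the reported count or share and 11 did not. When the midpoint of a peak, or 50% of it, had to lie in the window, 2 members held a HEPA1-6 peak (Apob and Apom) in place of 4, because the wide peaks at Apoe and Apoa2 are centred on neighbouring genes. The liver count stayed at 2 in each alternative run for it. Without a flank Apob left the HEPA1-6 count (3), and with 5 kb Apoc1 joined it (5). Over all protein-coding genes, the shares were 40.2% (HEPA1-6) and 27.6% (liver) without a flank, and 46.3% and 33.6% with 5 kb. Such shares were not computed for the midpoint, 50% overlap, score and list length alternatives, so those counts have no background. With an overlap of 50% of both peaks, 1 of 4 HEPA1-6 and 1 of 3 liver member peaks were shared, in place of 2 and 3, the pair at Apoa2 being the one left. Other apolipoprotein genes with a peak came to 9 (HEPA1-6) and 3 (liver) with a 5 kb flank, and to 3 in HEPA1-6 both in the higher-scoring 50% and at equal list length. In the higher-scoring 50%, 7 lipoprotein genes held a liver peak. Over genes up to the length of Apoe, the shares with a peak were 22.6% and 16.6%. No paired analysis was possible because each source has 1 pooled list, and leaving out a replicate was not run for the same reason. The unknown depth limits each statement that a gene held no peak.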

Other observations

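Some peaks around the members had an edge on the same base in both lists although their other edge differed. At the Apoe cluster, the HEPA1-6 peak of 20641 bp and the liver peak of 3902 bp both ended at 19716609 on chromosome 7. Near Apoa2 on chromosome 1, the peaks over Pcp4l1 both ended at 171197030, with widths of 2340 bp (HEPA1-6, score 32) and 1775 bp (liver, score 25). The cause of the common edges was not tested.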
